A study of Mus musculus with 6 samples.

Results

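The genes described here move iron into, through and out of a macrophage. They are Tfrc, Slc11a1, Slc11a2, Slc40a1, Fth1, Ftl1, Ireb2 and Aco1, and they were taken with every probe that the array annotation gives to them, whatever its signal. This gave 18 of the 45281 probes on the array for 8 of its 19057 named genes, and 16 of the 18, with at least 1 for every gene, were detected on all 6 arrays and tested. The cells were RAW 264.7, a mouse macrophage line derived from a leukemic tumor, kept in RPMI with low serum and given mica fine particles (MFP), a milled aluminosilicate mineral, at 100 μg/mL. RNA was collected at 0 h, 12 h and 48 h, and each time point was read on 2 arrays of the type Illumina Mouse WG-6 v2.0. The 0 h cells were taken as the nontreated control, although the labels give the particle dose for them too. There were no arrays of nontreated cells at 12 h or 48 h, so the effect of MFP and of the time in culture cannot be told apart. The study's methods list an iron oxide among the components of the particles.

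Mammalian cells take up transferrin-bound iron through the transferrin receptor and pass it out of the endosome as ferrous iron. Iron that is not used is stored inside ferritin shells or leaves the cell through ferroportin, the only known mammalian iron exporter. Macrophages of the spleen and liver recycle iron from engulfed red cells, so that phagosomal transport, heme breakdown and export are prominent in them. When cytosolic iron is low, 2 iron regulatory proteins bind hairpins in the messages of these genes, which protects the Tfrc message from decay and holds back translation of the ferritins and ferroportin.

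Between 16176 and 17155 probes were detected on an array (detection p under 0.05), the median signal lay between 102 and 116, and the 2 arrays of a time point correlated with r of 0.9935 to 0.9945 over the tested probes. Whether both arrays of a time point stem from separate cultures is not given in the sources used here. The p-values therefore reflect the spread between the arrays alone, and this may be technical. Of the 9 macrophage markers with a probe, 7 were detected on all 6 arrays, and Mertk and Mrc1 were detected on none. None of the 4 T cell, 2 B cell, 5 fibroblast, 4 neutrophil and 3 erythroid markers with a probe was detected on all 6 arrays, and 1 of 4 epithelial markers (Cdh1) was. As the RNA came from whole cultures, fewer cells of a kind and less RNA per cell cannot be told apart.

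The uptake receptor fell and the exporter rose. Tfrc was 3.96-fold lower at 12 h and 3.68-fold lower at 48 h than at 0 h, and Slc40a1, which encodes ferroportin, was 2.57-fold higher at 12 h and 6.87-fold higher at 48 h. Slc11a1, an iron transporter of the phagosome, rose with both steps of time, as did 1 of the 3 probes of Slc11a2. Of the storage genes, Ftl1 had risen by 48 h, whereas Fth1, already among the brightest probes of the array, did not pass the test. In the fit by limma with Benjamini-Hochberg adjustment over 14091 probes, 9 of the 16 tested probes passed an adjusted p of 0.05 at 12 h (7 higher, 2 lower), where 16.5% of all tested probes passed (8.73% higher, 7.82% lower). At 48 h against 0 h, 10 of 16 passed (7 higher, 3 lower) beside 50.9% of all probes (25.0% higher, 25.9% lower). At 48 h against 12 h, 7 of 16 passed (7 higher, 0 lower) beside 37.7% of all probes (18.9% higher, 18.9% lower). As so many probes of the whole array passed at 48 h, the count there does not by itself set these genes apart. Several of these probes belong to the same gene. Read on the brightest probe of each of the 8 genes, 4 were higher and 1 lower at 12 h, beside 18.3% of all named genes called. At 48 h against 0 h, 4 were higher and 2 lower, beside 53.8%. At 48 h against 12 h, 4 were higher and 0 lower, beside 40.5%. With a fold change of at least 2 as well, 3 of 16 probes passed at 12 h and 7 of 16 at 48 h, beside 1.16% and 9.73% of all probes, and 1 of 16 passed at 48 h against 12 h, beside 5.25%. On the brightest probes this was 1 gene higher and 1 lower at 12 h, and 3 higher and 1 lower at 48 h against 0 h. The share of all named genes past this cut is not given here, so these gene counts are no result about the genes. The median log2 fold change of the 16 probes was 0.24 at 12 h and 0.21 at 48 h against 0 h, and that of all probes was -0.023 and -0.00035. Over the 8 genes the median was 0.40 and 0.58, and over all named genes -0.0082 and 0.011. The 3 comparisons share arrays, since both times were set against the same 0 h arrays. In the table that the authors normalized in 2 separate sets of arrays, none of the 16 probes passed at 12 h against 0 h or at 48 h against 12 h by the same fit, whereas 11 and 8 passed once the set was added to it as a term. The share of all probes that passed with the set as a term is not given here, so the higher counts are no result about these genes.

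**Figure D1:**
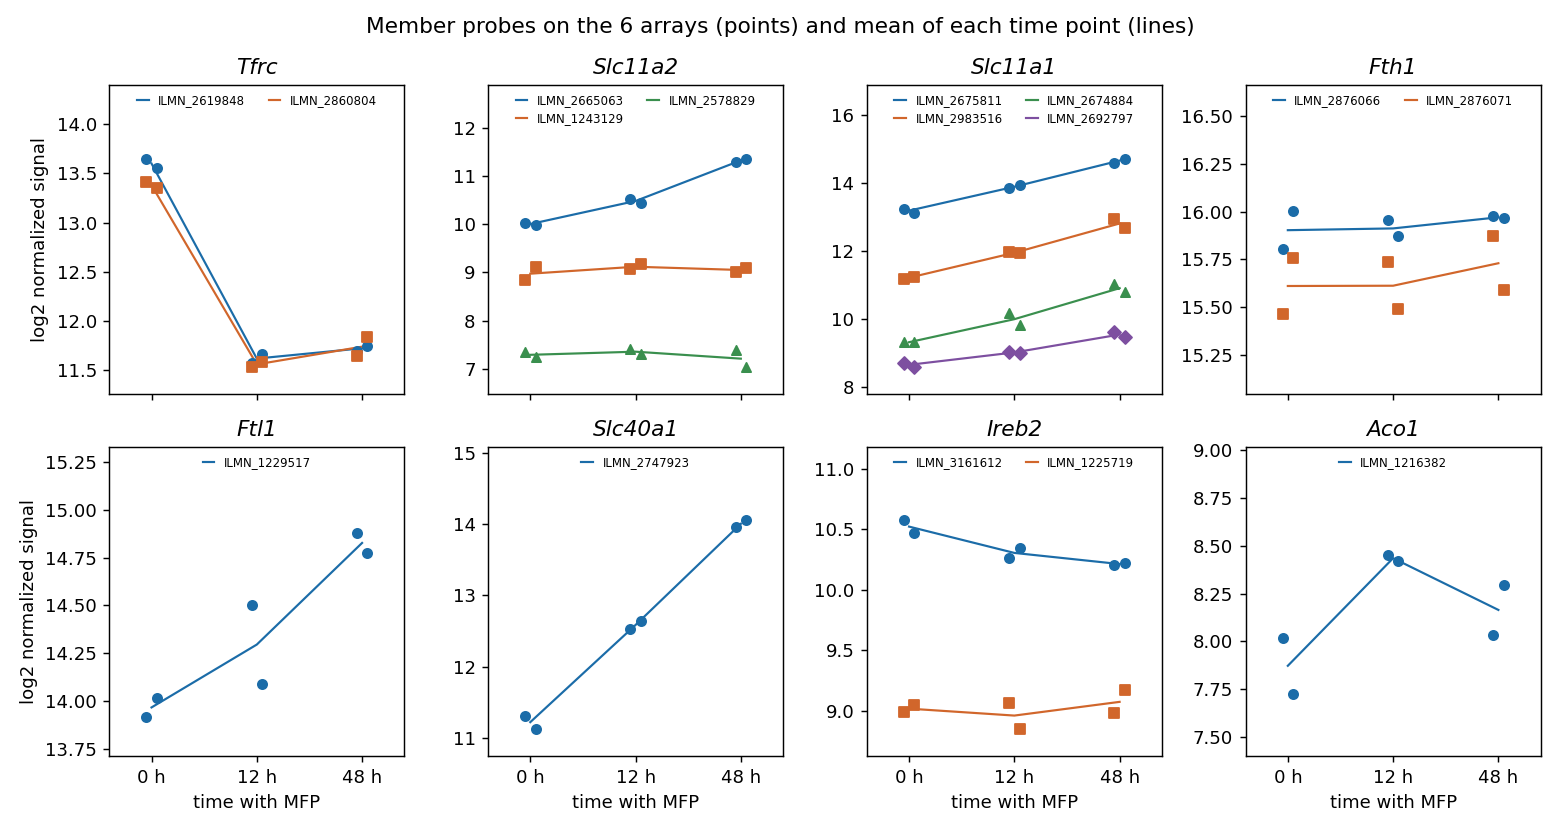
Log2 normalized signal of the 16 tested probes of the 8 genes (vertical axis, own range per gene) on the 2 arrays of each time point (points, in the order replicate 1 and 2) at 0 h, 12 h and 48 h of MFP, with lines through the means. Both Tfrc probes drop to between 11.53 and 11.66 at 12 h and lie between 11.64 and 11.84 at 48 h, and Slc40a1 climbs at each step, to 13.95 and 14.05.

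Tfrc encodes transferrin receptor 1, which brings iron-loaded transferrin into the cell. On its brighter probe, ILMN_2619848, the log2 normalized signal was 13.65 and 13.55 on the 0 h arrays, 11.57 and 11.66 on those of 12 h and 11.70 and 11.75 on those of 48 h. Both 0 h arrays lay above all 4 later arrays. The log2 fold change was -1.98 ± 0.0904 (SE, n = 2 arrays per time point; limma, adjusted p = 0.000141) at 12 h and -1.88 ± 0.0904 (limma, adjusted p = 3.43e-06) at 48 h. The second probe, ILMN_2860804, read 13.41 and 13.35 on the 0 h arrays, 11.53 and 11.58 on those of 12 h and 11.64 and 11.84 on those of 48 h, and changed by -1.82 and -1.64 (limma, adjusted p = 0.000171 and 9.74e-06). Both probes were thus low from 12 h on. Between 48 h and 12 h the brighter probe differed by 0.10 (limma, adjusted p = 0.405) and the other by 0.18 (limma, adjusted p = 0.191). Among 8149 named genes, each read on its brightest probe, Tfrc had the lowest fold change of all at 12 h and the 68th lowest at 48 h.

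The promoter window of Tfrc is shown because this gene fell the most at 12 h. It covers chr16:32608646-32608945 on the plus strand of GRCm38.p6, from 250 bases before to 50 after the start of a RefSeq transcript, and the capitals mark ACGTG, the core letters of the element that hypoxia-inducible factors bind.
Tfrc: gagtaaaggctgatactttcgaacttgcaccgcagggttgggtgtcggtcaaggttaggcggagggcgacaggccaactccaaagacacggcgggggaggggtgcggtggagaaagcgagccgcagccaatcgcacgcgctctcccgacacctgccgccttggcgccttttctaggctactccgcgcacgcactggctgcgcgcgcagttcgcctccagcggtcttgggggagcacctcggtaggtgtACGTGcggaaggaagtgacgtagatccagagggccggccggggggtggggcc
The RefSeq table of promoter windows held 8 windows for 6 of the 8 genes and none for Slc11a2 and Slc40a1. ACGTG stood on either strand in 2 of the 8 windows, both of Tfrc and both holding the same site, whose first letter lies at -2 from the first start and -228 from the second, and in 19.6% of all 32851 windows of 300 bases. CACGTG, a 6-letter motif that overlaps ACGTG, was in none of the 8 windows and in 7.15% of all windows on either strand. TGACNNNGC, the core of the antioxidant response element, was in none of the 8 and in 12.4% of all windows on either strand. CAGTGN, the loop letters of the iron responsive element, was in none of the 8 after the start on the transcribed strand and in 7.08% of all. As the windows end 50 bases after a start, the rest of each message was not searched, and a lack of these elements cannot be read from this. ACGTG and CACGTG were not among the motifs first planned for the search. With ACGTG in 19.6% of all windows, the shared site of Tfrc is no result about the gene. A match describes the letters of the window and no match says only that they are not within it.

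Slc11a2 encodes DMT1, the transporter that carries ferrous iron out of the endosome in the transferrin cycle. Its probe on the RefSeq transcript, ILMN_2665063, read 10.02 and 9.99 on the 0 h arrays, 10.52 and 10.45 on those of 12 h and 11.29 and 11.36 on those of 48 h, with no overlap between any of the time points. It rose by 0.48 ± 0.0872 on the log2 scale at 12 h (limma, adjusted p = 0.0102) and by 1.32 ± 0.0872 at 48 h (limma, adjusted p = 1.41e-05), with a 95% confidence interval of 1.12 to 1.52. The 12 h call was lost without 0 h replicate 1, 0 h replicate 2 or 12 h replicate 1 (limma, adjusted p = 0.0548, 0.0701 and 0.0609). The other 2 probes of the gene are annotated to cDNA clones and did not follow it. ILMN_1243129 changed by 0.076 at 48 h (95% confidence interval -0.18 to 0.34; limma, adjusted p = 0.610) and ILMN_2578829 by -0.080 (-0.37 to 0.21; limma, adjusted p = 0.630), so that both intervals lie below the change of the first probe. ILMN_2578829 was also dim, with a detection p of up to 0.0406.

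Slc11a1 encodes NRAMP1, which pumps iron and other divalent metals out of the phagosome and is known for its part in resistance to intracellular microbes. RAW 264.7 cells come from a BALB/c mouse, a strain with a loss-of-function allele of this gene, and the array signal reads its RNA and not its function. All 4 probes rose. The brightest, ILMN_2675811, read 13.24 and 13.12 on the 0 h arrays, 13.84 and 13.93 on those of 12 h and 14.60 and 14.71 on those of 48 h, and ILMN_2983516 read 11.17 and 11.24 on the 0 h arrays, 11.96 and 11.92 on those of 12 h and 12.93 and 12.67 on those of 48 h. On both probes every array lay above every array of the time before. ILMN_2675811 was higher by 0.70 ± 0.0956 at 12 h and 1.47 ± 0.0956 at 48 h (limma, adjusted p = 0.00326 and 1.30e-05), and ILMN_2983516 by 0.73 ± 0.107 and 1.60 ± 0.107 (limma, adjusted p = 0.00421 and 1.50e-05). The dimmer probes ILMN_2674884 and ILMN_2692797 moved the same way, by 0.68 and 0.37 at 12 h (limma, adjusted p = 0.0156 and 0.0399) and by 1.59 and 0.89 at 48 h (limma, adjusted p = 5.20e-05 and 0.000173). Their 12 h calls were the weak ones. That of ILMN_2674884 was lost without either 0 h array or 12 h replicate 1 (limma, adjusted p = 0.0848, 0.0954 and 0.0699), and that of ILMN_2692797 without either array of 0 h or of 12 h (limma, adjusted p = 0.0921, 0.196, 0.156 and 0.125) and with the replicate number as a block (limma, adjusted p = 0.0561). Over the 4 probes the rise at 48 h ran from 1.86-fold to 3.03-fold.

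The ferritin genes code for the heavy chain, which oxidizes ferrous iron, and the light chain, which helps the mineral core to form. Both have processed pseudogenes in the mouse genome, and whether the probes also read those was not tested. Fth1 was at the top of the range: the signal of ILMN_2876066 was 94.0% to 100% of the highest signal on its array and that of ILMN_2876071 was 75.8% to 82.8%, so that the scale left little room for a rise. ILMN_2876066 read 15.80 and 16.002 on the 0 h arrays, 15.95 and 15.87 on those of 12 h and 15.98 and 15.97 on those of 48 h, and the time points overlapped between 0 h and each later time. At 48 h it differed from 0 h by 0.068 (95% confidence interval -0.16 to 0.30; limma, adjusted p = 0.607) and ILMN_2876071 by 0.12 (-0.22 to 0.46; limma, adjusted p = 0.532), and at 12 h the differences were 0.0092 and 0.0015 (limma, adjusted p = 0.963 and 0.996). For signals this close to the top of the range, the intervals describe the array readings and do not bound a rise of the RNA.

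Ftl1, the light chain, was measured by ILMN_1229517, which read 13.92 and 14.01 on the 0 h arrays, 14.50 and 14.09 on those of 12 h and 14.88 and 14.77 on those of 48 h. The 2 arrays of 12 h were far apart and both lay above 0 h, and both 48 h arrays lay above all others. The log2 fold change was 0.33 ± 0.138 at 12 h (limma, adjusted p = 0.147) and 0.86 ± 0.138 at 48 h (limma, adjusted p = 0.00124), which is 1.82-fold. At 12 h the result depended on the arrays: the adjusted p by limma was 0.0448 without 12 h replicate 2 and 0.0091 with the array set, described with the processing, as a block. The step between 48 h and 12 h was 0.53 (limma, adjusted p = 0.0179), and it was 0.33 without 12 h replicate 2 and 0.47 without 48 h replicate 1 (limma, adjusted p = 0.0819 and 0.0794). The other Ftl1 probe, ILMN_2816707, was detected on none of the arrays (detection p 0.107 to 0.468) and was not tested.

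Slc40a1 encodes ferroportin. The log2 normalized signal of ILMN_2747923 was 11.31 and 11.13 on the 0 h arrays, 12.53 and 12.64 on those of 12 h and 13.95 and 14.05 on those of 48 h. No time points overlapped, and the gaps between them were many times the spread within them. It rose by 1.36 ± 0.101 at 12 h (limma, adjusted p = 0.000282), by 2.78 ± 0.101 at 48 h (limma, adjusted p = 1.58e-06) and by 1.42 ± 0.101, or 2.67-fold, at 48 h against 12 h (limma, adjusted p = 4.48e-05). Its fold change ranked 34th from the highest at 12 h and 23rd at 48 h among the 8149 named genes. Before normalization the signals of the same probe were 3327 and 1834 on the 0 h arrays, 5288 and 8307 on those of 12 h and 11674 and 18193 on those of 48 h, with the same order. The other probe, ILMN_1238359, was detected on none of the arrays (detection p 0.588 or higher).

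Slc40a1 against Tfrc can be read without any scaling between arrays, as the ratio of the Slc40a1 to the Tfrc signal on 1 array. Relative to its 0 h mean, the log2 of this ratio was 0.036 and -0.036 on the 0 h arrays, 3.31 and 3.34 on the 12 h arrays, and 4.66 and 4.66 on the 48 h arrays. The ratio was therefore 9.94-fold and 10.1-fold that of 0 h on the 12 h arrays and 25.2-fold and 25.3-fold on the 48 h arrays. At 12 h Tfrc had changed by -1.98 and Slc40a1 by 1.36, and from 12 h to 48 h Tfrc changed by 0.10 and Slc40a1 by 1.42. The ratio restates these changes and is no separate evidence. It leaves out Slc11a2, the other uptake gene, whose probe ILMN_2665063 rose by 1.32 at 48 h against 0 h. The remaining probes of Slc11a2 did not pass.

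Ireb2 and Aco1 encode the iron regulatory proteins IRP2 and IRP1, and Aco1 is also the cytosolic aconitase when it holds an iron-sulfur cluster. Ireb2 moved little. ILMN_3161612 read 10.57 and 10.47 on the 0 h arrays, 10.26 and 10.34 on those of 12 h and 10.20 and 10.22 on those of 48 h, with both 0 h arrays above the rest, and it fell by 0.31 ± 0.0894 at 48 h (limma, adjusted p = 0.0205), a 1.24-fold difference. That call was lost without 0 h replicate 1, 48 h replicate 1 or 48 h replicate 2 (limma, adjusted p = 0.107, 0.0857 and 0.0679). At 12 h it differed by -0.22 (limma, adjusted p = 0.140, and 0.0385 with the array set as a block), and the second probe, ILMN_1225719, by -0.057 at 12 h and 0.056 at 48 h (limma, adjusted p = 0.786 and 0.707). Aco1 was dim, at 8.02 and 7.72 on the 0 h arrays, 8.45 and 8.42 on those of 12 h and 8.03 and 8.30 on those of 48 h, and the 12 h arrays were the highest. It rose by 0.56 ± 0.130 at 12 h (limma, adjusted p = 0.0246) and differed by 0.29 from 0 h at 48 h (limma, adjusted p = 0.0943). The 12 h call was lost without 0 h replicate 2 or either 12 h array (limma, adjusted p = 0.143, 0.0953 and 0.0895) and with the replicate number as a block (limma, adjusted p = 0.0530). At 48 h the adjusted p by limma was 0.0481 without 0 h replicate 1, 0.0449 without 48 h replicate 1 and 0.0095 with the array set as a block. What these proteins did in the cells, which is set by iron and by protein stability, is not read by RNA.

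**Figure D2:**
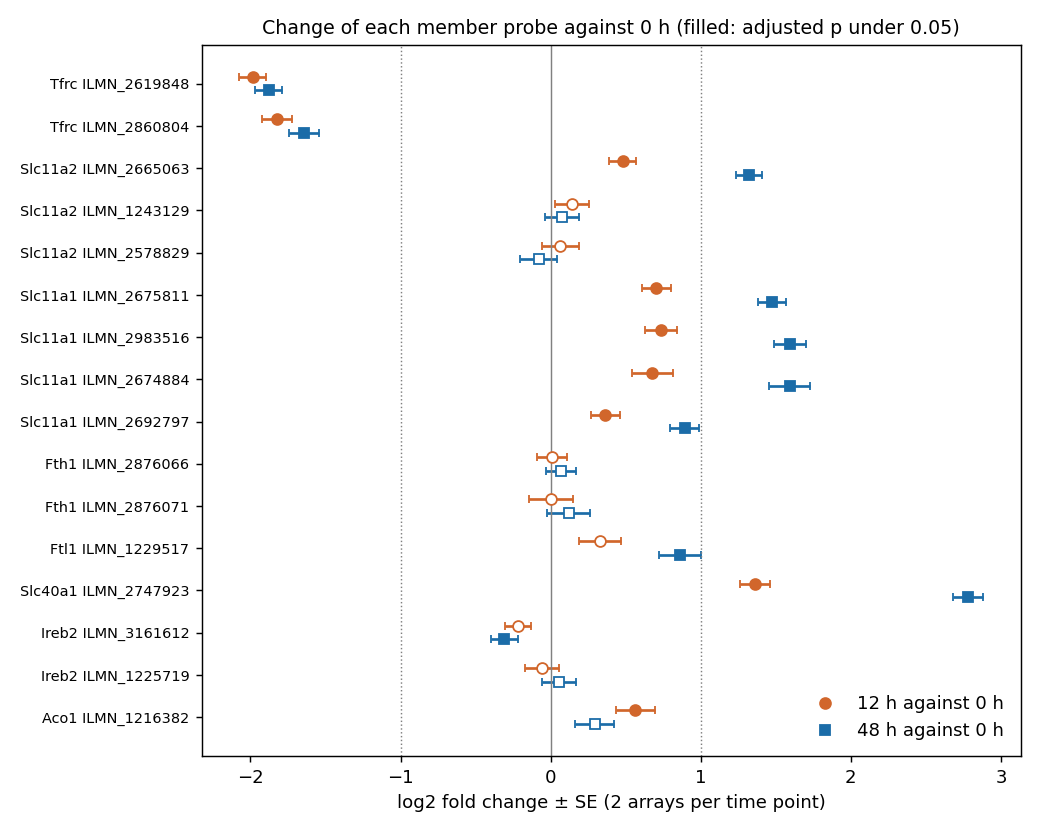
Log2 fold change of each tested probe against 0 h (horizontal axis, ± SE, 2 arrays per time point), at 12 h (circles) and 48 h (squares) of MFP, with filled symbols for an adjusted p under 0.05 and dotted lines at 2-fold. Both Tfrc probes lie between -1.98 and -1.64 at both times, the Slc11a1 probes and Slc40a1 lie further right at 48 h than at 12 h, and the Fth1 probes lie at 0 within their error.

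Of 68 other genes of iron and heme handling, 63 had a probe and 37 were tested, each on its brightest probe. At 12 h, 4 rose, 0 fell and 33 did not pass, beside 18.3% of all named genes that passed (10.3% higher, 7.99% lower). Once the array set entered the fit as a block, 5 genes passed as higher and 3 as lower at 12 h, and the share of all named genes under that fit is not given here. At 48 h, 12 rose, 5 fell and 20 did not pass, beside 53.8% of all named genes (27.4% higher, 26.5% lower). At 48 h against 12 h, 8 rose, 4 fell and 25 did not pass, beside 40.5% (20.4% higher, 20.1% lower). Read against these shares, the counts do not set the list apart. The median log2 fold change of the 37 genes was 0.033 at 12 h and 0.047 at 48 h.

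Of the 9 tested genes of heme uptake and breakdown, 5 rose at 48 h and none fell, beside 53.8% of all named genes called (27.4% higher), so that the number called is no result about them. Hmox1, the inducible heme oxygenase that frees iron from heme, read 10.67 and 11.15 on the 0 h arrays, 12.43 and 12.10 on those of 12 h and 12.19 and 11.90 on those of 48 h. Its 2 arrays at 0 h were apart, yet all 4 later arrays lay above them. It rose by 1.36 ± 0.182 at 12 h (limma, adjusted p = 0.00312) and by 1.14 ± 0.182 at 48 h (limma, adjusted p = 0.00123), the only gene of the list that rose over 2-fold at 12 h. Blvrb (biliverdin reductase B) was higher by 0.47 at 12 h and 0.64 at 48 h (limma, adjusted p = 0.0471 and 0.00442). Its 12 h call was lost without either array of 0 h or of 12 h, where the change was 0.34 to 0.61. Blvra (biliverdin reductase A) did not pass at 12 h (0.20; limma, adjusted p = 0.150) or 48 h (0.051; limma, adjusted p = 0.655). Slc48a1, which moves heme out of the phagolysosome, did not pass at 12 h (0.092; limma, adjusted p = 0.593) and rose by 0.70 at 48 h (limma, adjusted p = 0.000643). Flvcr1, a heme exporter, rose by 0.43 at 48 h (limma, adjusted p = 0.00461). In heme synthesis, Alas1 and Ppox, its rate-limiting enzyme and the enzyme that makes protoporphyrin, rose at 12 h by 0.48 and 0.52 (limma, adjusted p = 0.0150 and 0.00932) and at 48 h by 0.53 and 0.52 (limma, adjusted p = 0.00231 and 0.00208). Alad, an early enzyme of the pathway, fell by 0.36 at 48 h (limma, adjusted p = 0.0109). The 12 h calls of Alas1 and Ppox were lost without either 0 h array or 12 h replicate 2 (limma, adjusted p = 0.0602 to 0.0931), and the 48 h call of Alad without 0 h replicate 1 or 48 h replicate 1 (limma, adjusted p = 0.0693 and 0.0546).

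Beside Slc40a1, 2 of the 8 listed genes of export and its control were tested, and both rose at 48 h. With 53.8% of all named genes called there (27.4% higher), this number is no result about them. Cp encodes ceruloplasmin, the copper oxidase that prepares iron for transferrin after export. Of its 4 probes, only 1 was detected on all 6 arrays and tested. That probe read 7.16 and 6.997 on the 0 h arrays, 7.08 and 7.25 on those of 12 h and 10.32 and 9.99 on those of 48 h. The 12 h arrays overlapped those of 0 h, and only the 48 h arrays were high. Its 48 h change of 3.07 ± 0.133 (limma, adjusted p = 2.10e-06) came after a 12 h value of 0.083 (limma, adjusted p = 0.735). As the probe was dim at 0 h, the 48 h change depended on the background: it was 4.43 with normexp correction. Hfe, a partner of the transferrin receptors, rose by 0.43 at 48 h (limma, adjusted p = 0.00394). At 12 h Hfe differed by -0.22 (limma, adjusted p = 0.129), and with the array set as a block it was lower there (limma, adjusted p = 0.0400). Hamp, which encodes hepcidin, the hormone that removes ferroportin from the membrane, was detected on none of the 6 arrays.

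In uptake, 4 genes of the list were tested, and in storage 3. In each group 1 fell at 48 h and 0 rose, beside 53.8% of all named genes called (27.4% higher, 26.5% lower). With so few tested genes these numbers are no result about the groups. Slc39a14, a ferrous iron importer, was 0.33 lower on the log2 scale at 48 h (log2 fold change -0.33; limma, adjusted p = 0.0133), a call lost without 0 h replicate 2 or 48 h replicate 2 (limma, adjusted p = 0.0567 and 0.0763). Steap3, the endosomal reductase of the transferrin cycle, did not pass against 0 h (0.10 at 12 h and -0.15 at 48 h; limma, adjusted p = 0.625 and 0.344), and at 48 h against 12 h it differed by -0.25 (limma, adjusted p = 0.140, and 0.0320 with the array set as a block). Ncoa4, the receptor that delivers ferritin to autophagy, changed by 0.32 (12 h) and 0.46 (48 h) without passing (limma, adjusted p = 0.243 and 0.0548). With the array set as a block it passed at both times (limma, adjusted p = 0.0070 and 0.000173). At 48 h it also passed without either 12 h array or 48 h replicate 2 (limma, adjusted p = 0.0352, 0.0336 and 0.0146). Pcbp1, a chaperone that loads ferritin, fell by 0.45 at 48 h (limma, adjusted p = 0.00292). Fbxl5, the iron-sensing ligase subunit that marks IRP2 for destruction, had 5 probes, of which only 1 was tested. On that probe it rose by 0.67 at 48 h (limma, adjusted p = 0.000667), with 0.19 at 12 h (limma, adjusted p = 0.216). Exoc6, an exocyst subunit used in the transferrin cycle, was higher at 48 h than at 12 h by 0.36 (limma, adjusted p = 0.0204), a call lost without 12 h replicate 2 or 48 h replicate 1 (limma, adjusted p = 0.128 and 0.0982).

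Among mitochondrial genes, both mitoferrins rose at 48 h, Slc25a37 by 1.41 (limma, adjusted p = 1.71e-05) and Slc25a28 by 0.38 (limma, adjusted p = 0.0106). The call of Slc25a28 was lost without 0 h replicate 2 or 48 h replicate 2 (limma, adjusted p = 0.0511 and 0.0627), and at 12 h it differed from 0 h by -0.22 (limma, adjusted p = 0.160, and 0.0416 with the array set as a block). Glrx5, which passes on iron-sulfur clusters, fell by 0.61 and Abcb8, a mitochondrial transporter, by 0.56 at 48 h (limma, adjusted p = 0.00362 and 0.00172). The other 4 of the 8 tested genes of this group did not pass at 48 h. As 53.8% of all named genes passed there, the number called is no result about the group.

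**Figure D3:**
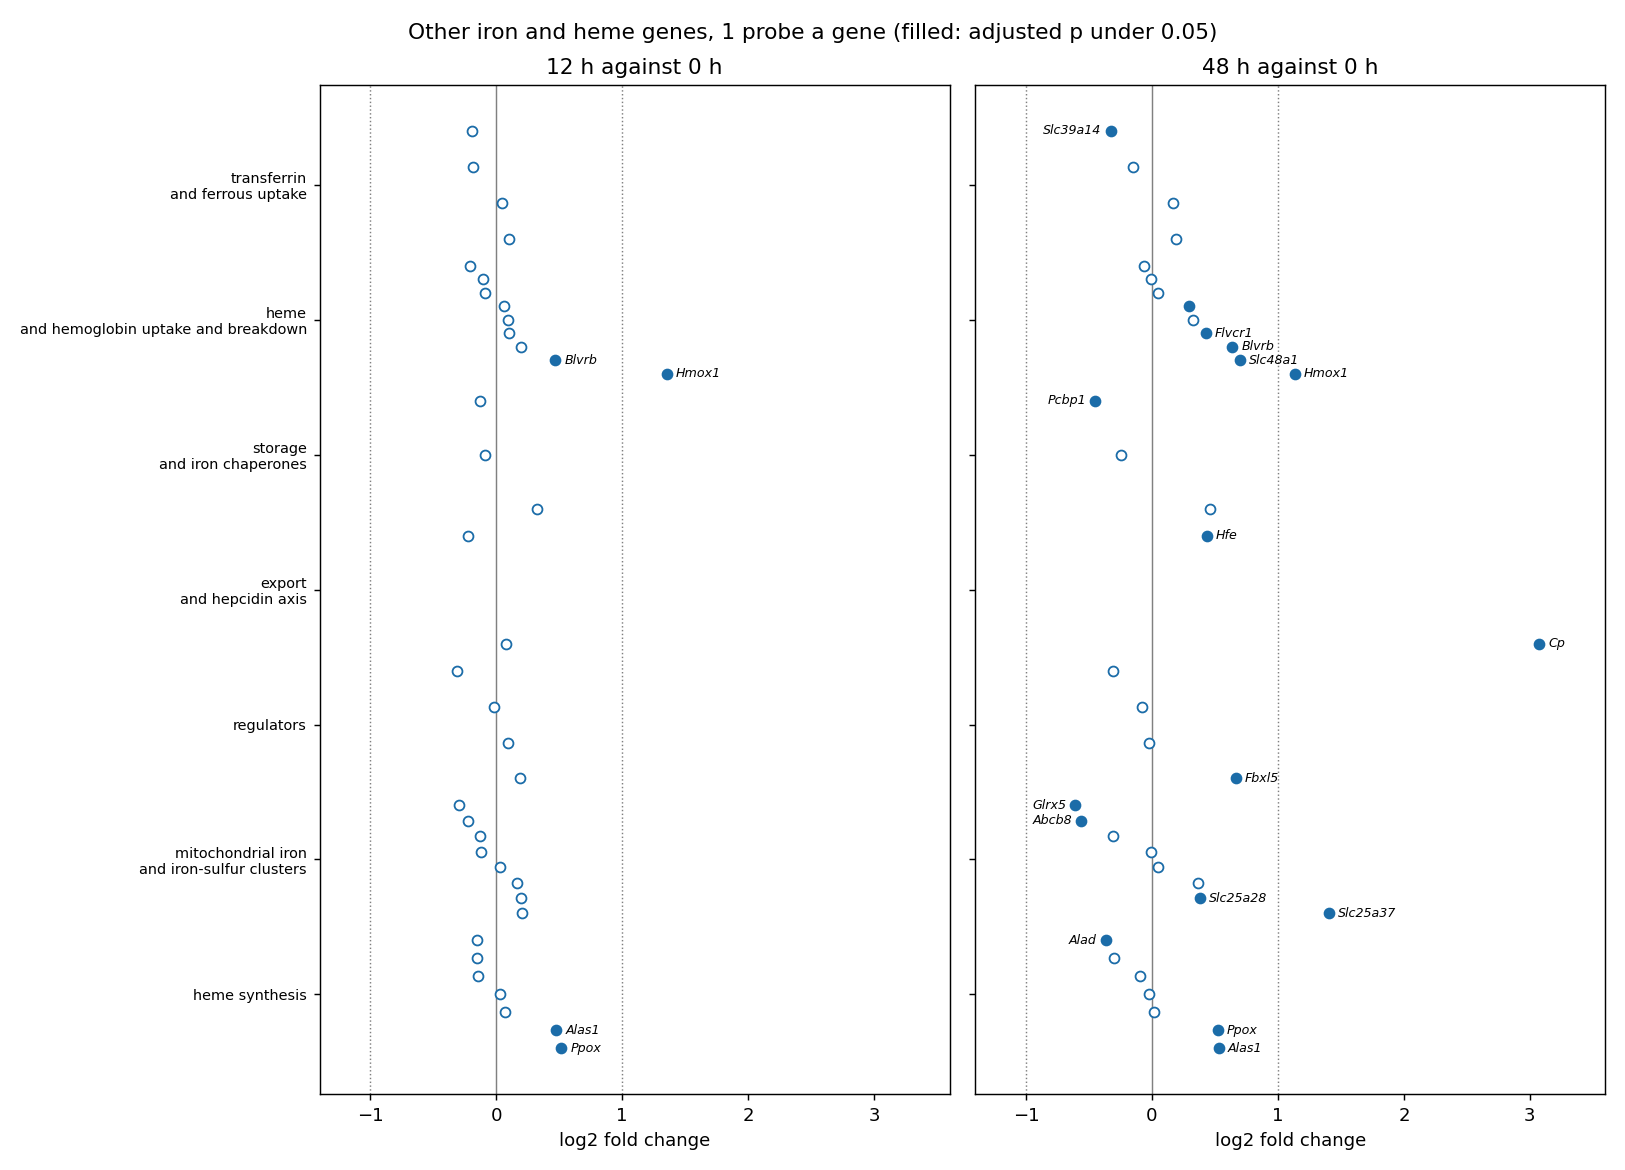
Log2 fold change of the 37 other tested iron and heme genes (1 point a gene, its brightest probe), by role, at 12 h and at 48 h of MFP against 0 h, with filled points for an adjusted p under 0.05, dotted lines at 2-fold and names for called genes that the text describes. Few points are filled at 12 h, and Cp at 3.07 stands furthest right at 48 h.

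The genes whose pattern was nearest to Tfrc and to Slc40a1 were sought among 8148 others, by the Euclidean distance between their pairs of log2 fold changes at 12 h and 48 h, over the same 6 arrays. Mir17hg, which hosts the miR-17 cluster, was nearest to Tfrc at a distance of 0.12, with -1.89 at 12 h and -1.80 at 48 h. Skil, Usp2, Gpx1 and Hmga2-ps1 followed at 0.54, 0.59, 0.71 and 0.86, so that only Mir17hg lay close. Nearest to Slc40a1 were Anxa3 at 0.12 (1.44 at 12 h and 2.88 at 48 h), Hebp1, a heme-binding protein, at 0.18 (1.18 and 2.78), Dnmt3l at 0.24, Slc46a3 at 0.27 and Fcgr3, an Fc receptor of macrophages, at 0.31. These distances describe the arrays and carry no test.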

How the data were processed

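RNA of RAW 264.7 cells was read on 6 Illumina Mouse WG-6 v2.0 arrays. The authors exported signal intensity and detection p-values per probe from GenomeStudio and deposited them without a log step, background subtraction or normalization between arrays, which leaves the changes of dim probes understated. The authors also deposited quantile-normalized log2 values in 2 sets of 3 arrays (set 1: 0 h replicate 1, 12 h replicate 2, 48 h replicate 2), normalized separately, as the values show. R 3.0.2 is named in the submitters' processing notes.

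The 14091 probes (31.1%) whose detection p was below 0.05 on every array entered the analysis, and their log2 signals were quantile normalized over the 6 arrays. In R 4.3.3, limma 3.58.1 fitted a mean to each time point, with Benjamini-Hochberg adjustment over these probes and 3 residual degrees of freedom. The scripts were tested on simulated data. Gene names came from the platform annotation (34885 probes with 1 symbol, 18 with several, left unnamed, and 10378 with none), updated through Entrez IDs. The number of arrays limits the precision. The replicate numbers did not pair the arrays across all time points: deviations from the time point means correlated with -0.553 (12 h with 0 h), -0.564 (48 h with 0 h) and 0.648 (48 h with 12 h) for arrays of the same number. At 12 h and 48 h the same number is also the same set. Arrays of the same set correlated with 0.553, 0.564 and 0.648 in these pairs of time points. With 2 arrays per time point the deviations mirror each other, so the sizes are equal by construction. Only the sign tells the groupings apart, and the values for the sets are no second observation.

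The members and lists were chosen with earlier results of these data known. Named genes are all members, the called genes of the iron list with the largest changes of their role (up to 3 a role and comparison), Hmox1, Ncoa4, Fbxl5, Trf, Steap3 and Hamp whatever their values, and the 5 genes nearest to Tfrc and to Slc40a1. Blvra was named as well, beside Blvrb. Promoter windows are from RefSeq (GRCm38.p6).

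Alternatives were a looser detection filter or none, normexp correction of the background (offset 16), a 75th percentile scaling, the authors' table, the replicate number or the array set as a block, 1 probe a gene, each array left out and the methods' t-test.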

Additional observations from a re-analysis of the deposited data

Results flagged for a closer look

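In 7 probes of 4 of the genes the change against 0 h was larger at 48 h than at 12 h by the test of that difference (48 h against 12 h, limma, adjusted p under 0.05). Of these probes 4 belong to Slc11a1. As 37.7% of all tested probes passed this comparison (18.9% higher), the count by itself is not read as a result about these genes. The difference on the log2 scale was 1.42 for Slc40a1 ILMN_2747923, 0.843 for Slc11a2 ILMN_2665063, and 0.770, 0.863, 0.913 and 0.527 for Slc11a1 ILMN_2675811, ILMN_2983516, ILMN_2674884 and ILMN_2692797. For Ftl1 ILMN_1229517 it was 0.532, and that call was lost without 12 h replicate 2 or 48 h replicate 1 (limma, adjusted p = 0.0819 and 0.0794). Both changes were measured against the same 0 h arrays.

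Trf, which encodes transferrin, was not among the tested probes. It was detected on the 4 arrays of cells with MFP for 12 h or 48 h and on neither 0 h array, but its signals were low: 120 and 119 on the 0 h arrays, 134 and 146 on the 12 h arrays, and 137 and 146 on the 48 h arrays. It got no test, since a filter that keeps it would do so only through the time points where it was detected.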

How the results depend on the processing

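No direction reversed among the genes' calls. The 9 probes that passed at 12 h against 0 h became 5 with 75th percentile scaling, 5 of 8 with 1 probe a gene, 3 with a fold change of at least 2, 0 in the deposited table, 0 by the methods' t-test after Benjamini-Hochberg adjustment and 5 to 9 with 1 array left out. The 10 at 48 h against 0 h became 6 of 8 with 1 probe a gene, 7 with the fold change, 7 in the deposited table, 8 by the t-test and 9 to 10 with 1 array left out. The deposited table lost Slc11a1 ILMN_2692797, Ftl1 and Ireb2 ILMN_3161612 there (limma, adjusted p = 0.135, 0.135 and 0.732). The 7 at 48 h against 12 h became 4 with 1 probe a gene, 1 with the fold change, 0 in the deposited table, 0 by the t-test and 6 to 7 with 1 array left out. Across all probes that t-test passed 2897, 5723 and 4549 unadjusted and 0, 2000 and 194 adjusted.

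Of the other iron genes, the 4 at 12 h became 1 with 75th percentile scaling, 1 with the fold change, 0 in the deposited table and by the t-test, 8 (5 higher, 3 lower) with the array set as a block in either table and 1 to 3 with 1 array left out. The 17 at 48 h became 3 in the deposited table, 6 by the t-test, 3 with the fold change, 24 with the array set as a block and 13 to 16 with 1 array left out. The 12 at 48 h against 12 h became 1 in the deposited table, 0 by the t-test, 2 with the fold change, 18 with the array set as a block and 7 to 13.

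The replicate number as a block, which joins arrays of the same set at 12 h and 48 h but of different sets at 0 h, gave 7, 10 and 7 probes of the 8 genes and 3, 16 and 12 other genes, and the array set as a block, which crosses the numbers of the 0 h arrays alone, gave 11, 11 and 8 probes. For neither block is the share of all probes or of all named genes given here, so these counts are no result about the genes. The same holds for the counts of the other iron genes under the settings above, each out of 37 tested genes. For those settings the share of all named genes is not given either. Scaling to the 75th percentile ended the 12 h calls of Slc11a2 ILMN_2665063, Slc11a1 ILMN_2674884 and ILMN_2692797 and Aco1, and of Ireb2 ILMN_3161612 at 48 h and Ftl1 at 48 h against 12 h. The array set as a block added Ftl1 and Ireb2 ILMN_3161612 at 12 h (limma, adjusted p = 0.0091 and 0.0385) and Aco1 at 48 h against 0 h and 12 h (limma, adjusted p = 0.0095 and 0.0179). Causes were not tested. Within each set, directions differed only for probes that had not passed. Dim probes near the detection limit and the top of the signal range at Fth1 limit what these arrays can show.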
